A study of Arabidopsis thaliana with 6 samples.

Results

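The transcripts described here were those at least 2-fold lower in roots of *ninja-1*, an *Arabidopsis thaliana* mutant in the jasmonate repressor NINJA, than in wild-type (WT) roots. A probe set, the group of short probes that reports 1 transcript on the ATH1 array, belonged to this falling set when its mean over the 3 WT arrays was 5 or more on the log2 scale, when its mean over the 3 *ninja-1* arrays lay at least 1 log2 unit below the WT mean, and when every *ninja-1* array was below every WT array. These conditions were met by 57 of the 22746 probe sets that are not array controls (0.251%). After 8 of them had been set aside, among them the probe set of *NINJA* itself, 49 members remained. Since the difference between the genotypes chose the members, their falls are a description and were not tested.

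The study compared undamaged roots to ask which transcripts depend on NINJA when no wound has been given. *ninja-1* seedlings and WT seedlings were grown without treatment for 5 days, and whole roots were collected. Both genotypes were in the Col-0 background and held *JGP*, a reporter gene driven by the *JAZ10* promoter. Each of the 3 biological replicates of *ninja-1* and of the 3 of WT pooled 120 roots, so that a value is an average over many seedlings and all root cell types. The mutant was a single allele, found in a screen on the reporter. In such pooled roots, fewer cells of a type and less RNA per cell cannot be told apart.

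Jasmonates are lipid-derived hormones that restrain growth and switch on defence. In resting cells JAZ proteins bind MYC transcription factors, and NINJA links JAZ proteins to the co-repressor TOPLESS, which keeps jasmonate target genes off. In roots jasmonates are known for slowing growth and for raising the output of defence compounds.

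The arrays were alike in overall level, with medians between 5.95 and 6.03, and Pearson's r across probe sets was at least 0.998 within a genotype and at most 0.996 between genotypes. On each array 26.5% to 27.0% of the probe sets sat within 0.05 of the floor of 2.11, where no level can be read. The probe set matched to *NINJA* (AT4G28910) measured 7.30, 7.05 and 7.13 on the *ninja-1* arrays and 9.60, 9.52 and 9.72 on the WT arrays, with every *ninja-1* array below every WT array. Of 34 photosynthesis genes taken as markers of green tissue, 6 had a named probe set, none of them at the floor, and their summed level ran between 11.22 and 11.45 in *ninja-1* against 10.98 and 11.09 in WT. Root hair markers (2 of 13 measured) summed to between 10.41 and 10.64 in *ninja-1* and between 10.26 and 10.37 in WT. The 1 measured meristem marker of 16 ran between 7.67 and 7.78 in *ninja-1* and between 7.82 and 8.16 in WT. The part of these tissues in the results was not tested, and no marker of root cap, endodermis or vasculature had a named probe set.

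Of the 49 members, 24 had a gene name and 25 had none here and are given by their probe set. The 24 included 20 probe sets with a single gene and 2 shared by a pair of genes. The other 2, *NAC100* and *MLP328*, were named by matching fold change and adjusted p with the study's list of changed genes. Matching could name only genes on that list. The median difference of the 49 was −1.23 log2 units, or 2.35-fold lower in *ninja-1*, and the single differences ran between −2.20 and −1.002. By comparison, the median of the 13039 probe sets with a WT mean of 5 or more was −0.02. Members with and without a gene name had similar medians, −1.21 and −1.24. Only 3 members were at least 4-fold lower and 12 fell by 1.5 log2 units or more, while 22 differed by less than 1.2 log2 units.

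**Figure D1:**
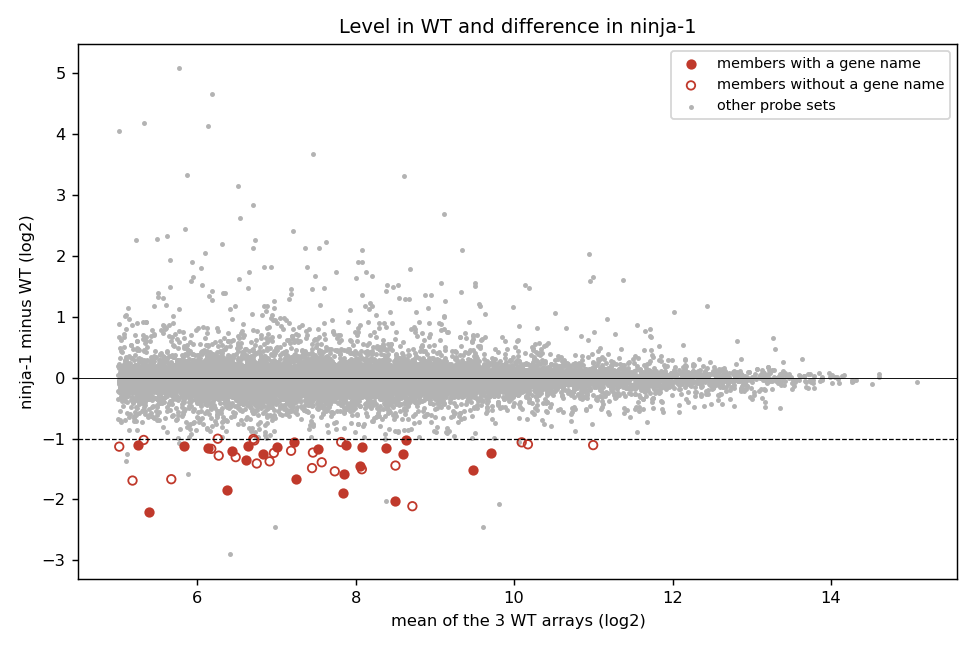
Mean of the 3 WT arrays (horizontal, log2) and *ninja-1* minus WT (vertical, log2) for all probe sets with a WT mean of 5 or more. Members with a gene name are filled red points, members without one are open red points, and grey points below the dashed line at −1 are probe sets that were set aside or whose arrays overlapped. The members spread over WT levels between 5.01 and 11.00, and the lowest member lies at −2.20. The grey points of *AT2G35980* at −2.90 and of *NINJA* and *AT1G26380* at −2.45, all set aside, lie below it.

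The members were of middling abundance in WT roots. Their WT means had a median of 7.22, against 7.87 over all probe sets with a WT mean of 5 or more, and ran between 5.01 and 11.00. In WT 7 members were under 6 and 14 were at 8 or more. The *ninja-1* means ran between 3.19 and 9.89, and 39 of the 49 were still at 5 or more, so that most of these transcripts were lower but still measured in *ninja-1*. The mean of 3 members was under 4 in *ninja-1*.

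The same rule turned upwards was met by 114 probe sets, against 57 downwards, with a median difference of 1.48. Among the 13039 probe sets with a WT mean of 5 or more, 59 were at −1 or lower and 116 at 1 or higher. Separation of the genotypes was much more common than a 2-fold fall. Every *ninja-1* array was below every WT array in 2040 probe sets (15.6%) and above in 1446 (11.1%), and just 2 of the 59 probe sets at −1 or lower overlapped. In the limma fit over all 22746 probe sets, 3 members (*NAC100*, *AT1G78830*/*AT1G78820* and *MLP328*) were among the 11 called at least 2-fold lower at an adjusted p under 0.05, where 0.0484% of all probe sets were called lower and 0.492% (112) higher. With the arrays centred on their medians, 40 were called lower and 170 higher. Without *ninja-1* replicate 3, 12 were called lower and 83 higher, and without any 1 of the other 5 arrays 3 to 5 lower and 33 to 56 higher. When only the 13039 probe sets with a WT mean of 5 or more were fitted, 48 members were called, against a background of 0.429%. The rule used the same contrast, so nothing is read from either count.

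The functions of 23 of the 24 named members fell into 4 broad groups: 8 were peptide precursors or proteins of the cell surface and secretory route, 8 were enzymes that act on small molecules, 3 were regulators, and 4 served protein turnover, folding or stress. The role of the remaining one, *AT4G04990*, is not given here. These groups were drawn up after the values were known.

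**Figure D2:**
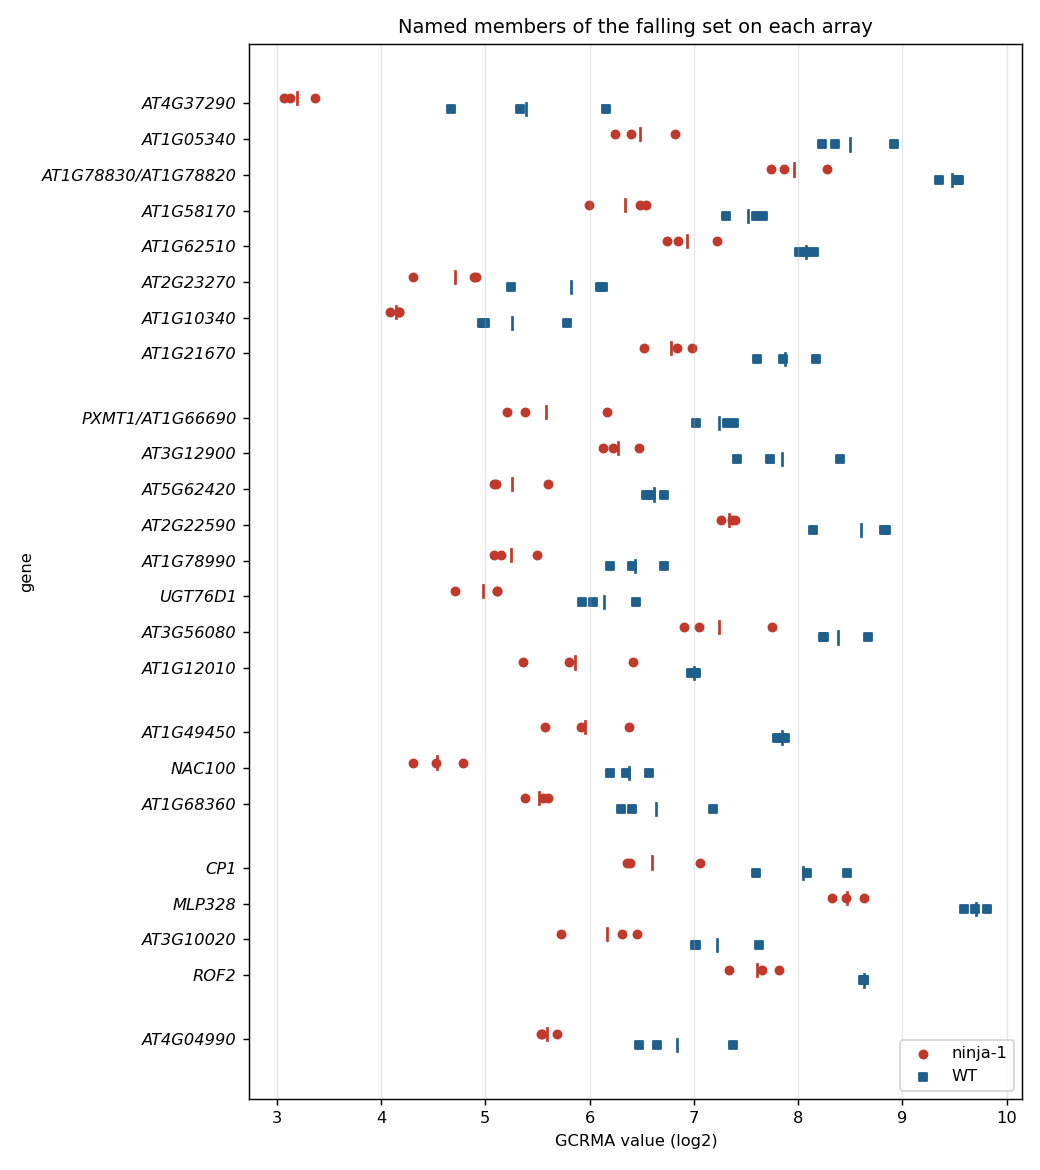
GCRMA value (log2, horizontal) of each of the 24 named members on each array, with *ninja-1* as red circles above WT as blue squares, vertical bars at the means of the 3 arrays, and blank rows between the groups of functions. In every row all 3 red points lie left of all 3 blue points, as the rule requires, with *AT4G37290* lowest in *ninja-1* at 3.19.

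Among the peptide precursors and surface proteins the largest fall of all members was that of *AT4G37290*, which encodes the precursor of a secreted PIP-type peptide, a family that amplifies immune signals at the cell surface. It measured 3.07, 3.37 and 3.13 on the *ninja-1* arrays, against 6.16, 4.67 and 5.33 on the WT arrays. The *ninja-1* arrays were close together, whereas the WT arrays ran between 4.67 and 6.16, and their SD of 0.74 was the largest WT SD of the 49. The difference was −2.20 ± 0.42 (moderated SE, n = 3 each). Its relative *AT2G23270*, the precursor of a second PIP-type peptide, was also a member, with 4.31, 4.92 and 4.90 on the *ninja-1* arrays against 6.13, 5.25 and 6.10 on the WT arrays. Here *ninja-1* and WT came nearest to each other among all members, since WT replicate 2 lay just 0.33 above the highest *ninja-1* array. *AT4G28460*, another gene of that peptide family, fell short of the rule, with means of 4.54 in *ninja-1* and 5.21 in WT and no overlap. *AT4G37295*, the next gene along the chromosome from *AT4G37290*, was nearly the same in both genotypes, at 5.66 in *ninja-1* and 5.73 in WT.

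*AT1G05340*, which encodes a small membrane protein with a cysteine-rich transmembrane module, a family linked to stress tolerance, measured 6.39, 6.24 and 6.82 in *ninja-1* and 8.23, 8.35 and 8.92 in WT. All 3 *ninja-1* arrays lay at least 1.42 below the lowest WT array, and the difference was −2.02 ± 0.26. Of 5 other genes of this family with a named probe set, *AT5G04080* (5.99 in *ninja-1*, 6.67 in WT) and *AT4G33660* (6.55 in *ninja-1*, 7.05 in WT) had every *ninja-1* array below every WT array, and the other 3 overlapped with differences between −0.03 and 0.26. Only 3 of the 5 had a WT mean of 5 or more, 2 of them wholly below, beside 15.6% of all probe sets at that level.

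The probe set shared by *AT1G78830* and *AT1G78820*, which lie side by side and encode lectin-like proteins of the cell wall, cannot separate them. It measured 7.86, 7.74 and 8.28 in *ninja-1*, against 9.35, 9.55 and 9.54 in WT. It was among the most abundant members in WT, with an SD of 0.11 there, and its difference was −1.52 ± 0.17. *AT1G62510*, which encodes a protein of the lipid-transfer and seed-albumin fold, averaged 6.94 ± 0.25 in *ninja-1* and 8.08 ± 0.07 in WT (SD, n = 3 each). *AT1G58170* encodes a dirigent-like protein, a family that steers the coupling of phenolic radicals, and averaged 6.34 ± 0.30 in *ninja-1* and 7.52 ± 0.19 in WT.

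*AT1G10340*, an ankyrin repeat protein of a family that includes membrane proteins of the defence response, had means of 4.14 in *ninja-1* and 5.25 in WT, and *AT1G21670*, a protein with a DPP6-like N-terminal domain, 6.78 in *ninja-1* and 7.88 in WT. *AT1G21680*, the next gene along the chromosome from *AT1G21670* and of the same family, had means of 6.13 in *ninja-1* and 6.88 in WT with no overlap, a difference of −0.75. Among 7 other dirigent-like genes, 2 had every *ninja-1* array below every WT array and 3 every *ninja-1* array above, with differences between −0.49 and 1.81. Of all probe sets with a WT mean of 5 or more, 15.6% were wholly below and 11.1% wholly above.

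Among the enzymes of small molecules, the largest fall was that of the probe set for *PXMT1* and its neighbour *AT1G66690*, members of the SABATH methyltransferases, which cap carboxyl groups or nitrogens of small metabolites. The values were 5.20, 5.38 and 6.17 in *ninja-1* and 7.02, 7.32 and 7.39 in WT. *ninja-1* replicate 3 stood above the other *ninja-1* arrays, and the difference was −1.66 ± 0.30. The 5 other SABATH genes with a named probe set were at or near the floor or overlapped, apart from *AT5G38780*, which was higher in *ninja-1* (3.69) than in WT (3.12).

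*AT3G12900* encodes scopoletin 8-hydroxylase, which makes the iron-mobilising coumarin fraxetin. It measured 6.22, 6.47 and 6.13 in *ninja-1* against 8.40, 7.73 and 7.42 in WT, where replicate 1 was nearly a unit above replicate 3, and the difference was −1.57 ± 0.29. *AT3G12900* was not among the 3 members called in the limma fit over all probe sets. Of the 27 genes of the iron deficiency list, 6 were measured outside the set, and none passed the adjusted p. *AT3G13610*, the feruloyl-CoA hydroxylase of the same coumarin pathway, averaged 11.18 ± 0.33 in *ninja-1* and 11.25 ± 0.21 in WT. *AT1G28680*, which closes the coumarin ring, averaged 10.84 in *ninja-1* and 10.69 in WT (adjusted p = 0.254), and *BGLU42*, a β-glucosidase that releases coumarins, 9.26 in *ninja-1* and 9.72 in WT (adjusted p = 0.325), both from the limma fit.

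*AT5G62420*, an aldo-keto reductase, was at 5.26 ± 0.30 in *ninja-1* and 6.62 ± 0.09 in WT, while 6 other genes of the family with a named probe set differed by no more than 0.28 in either direction. The sugar transferases *AT2G22590* and *UGT76D1* were both members. *AT2G22590*, a UDP-glycosyltransferase, averaged 7.34 ± 0.07 in *ninja-1* and 8.60 ± 0.40 in WT. *UGT76D1*, which glucosylates dihydroxybenzoic acids derived from salicylic acid, averaged 4.98 ± 0.23 in *ninja-1* and 6.14 ± 0.28 in WT.

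Of the remaining enzymes, *AT1G12010* encodes an ACC oxidase, which performs the last step of ethylene synthesis, and *ninja-1* arrays at 5.81, 5.36 and 6.42 stood against WT arrays at 7.02, 6.98 and 7.01, so that the spread lay almost wholly in *ninja-1*. *AT1G78990*, a BAHD-type acyltransferase, averaged 5.24 in *ninja-1* and 6.44 in WT, and *AT3G56080*, a putative methyltransferase, 7.24 in *ninja-1* and 8.39 in WT. Among 10 other BAHD genes, 4 were lower in *ninja-1* with no overlap, by 0.43 to 0.58, and 2 were higher by 0.56 and 0.61, beside 15.6% of all probe sets with a WT mean of 5 or more that were wholly below and 11.1% wholly above.

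The 3 regulators held 2 of the 5 largest falls. *AT1G49450*, a WD40-repeat protein, measured 5.57, 5.92 and 6.38 in *ninja-1* and 7.80, 7.85 and 7.88 in WT. Its WT arrays were nearly identical, with an SD of 0.04, and the gap of 1.43 between its genotypes was the widest of all members. *NAC100*, a transcription factor of the NAC family, was named by matching. Its probe set measured 4.52, 4.30 and 4.79 in *ninja-1* and 6.57, 6.20 and 6.35 in WT, a difference of −1.84 ± 0.17. *AT1G68360*, a C2H2 zinc finger protein of a family that controls trichome formation, averaged 5.51 ± 0.11 in *ninja-1* and 6.63 ± 0.48 in WT, the WT spread coming from replicate 1 at 7.19 above 6.31 and 6.41. The single other NAC gene with a named probe set, *NAC014*, averaged 5.91 in *ninja-1* and 5.90 in WT.

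Within protein turnover, folding and stress, *CP1*, a papain-like cysteine protease also called RD21A-like protease, measured 6.36, 6.39 and 7.06 in *ninja-1* and 7.60, 8.08 and 8.47 in WT. *MLP328*, a member of the Bet v 1-like latex protein family, was also named by matching. Its probe set, one of the most abundant members, measured 8.32, 8.64 and 8.46 in *ninja-1* and 9.59, 9.70 and 9.81 in WT. Its difference of −1.23 ± 0.11 had the smallest SE of the 49. *ROF2*, a heat-induced immunophilin that works with the chaperone HSP90, averaged 7.60 ± 0.24 in *ninja-1* and 8.63 ± 0.01 in WT, and *AT3G10020*, a small protein induced by low oxygen, 6.16 ± 0.39 in *ninja-1* and 7.22 ± 0.35 in WT. *AT4G04990* measured 5.54, 5.53 and 5.69 in *ninja-1* and 6.48, 6.65 and 7.38 in WT.

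*AT4G11310*, another papain-like protease and one of the genes set aside, was named only by matching. Its probe set, of the type shared between genes, measured 7.77, 7.66 and 7.76 in *ninja-1*. The WT arrays were at 9.78, 9.69 and 9.95, a difference of −2.08. Of 8 further measured papain-like relatives of *CP1*, none had every *ninja-1* array below every WT array and 3 had every *ninja-1* array above. Their differences ran between −0.27 and 3.27, and 7 of the 8 had a WT mean of 5 or more. Of all probe sets at that level, 15.6% were wholly below and 11.1% wholly above. The gene at 3.27, *AT1G29090*, averaged 6.75 in *ninja-1* and 3.48 in WT.

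**Figure D3:**
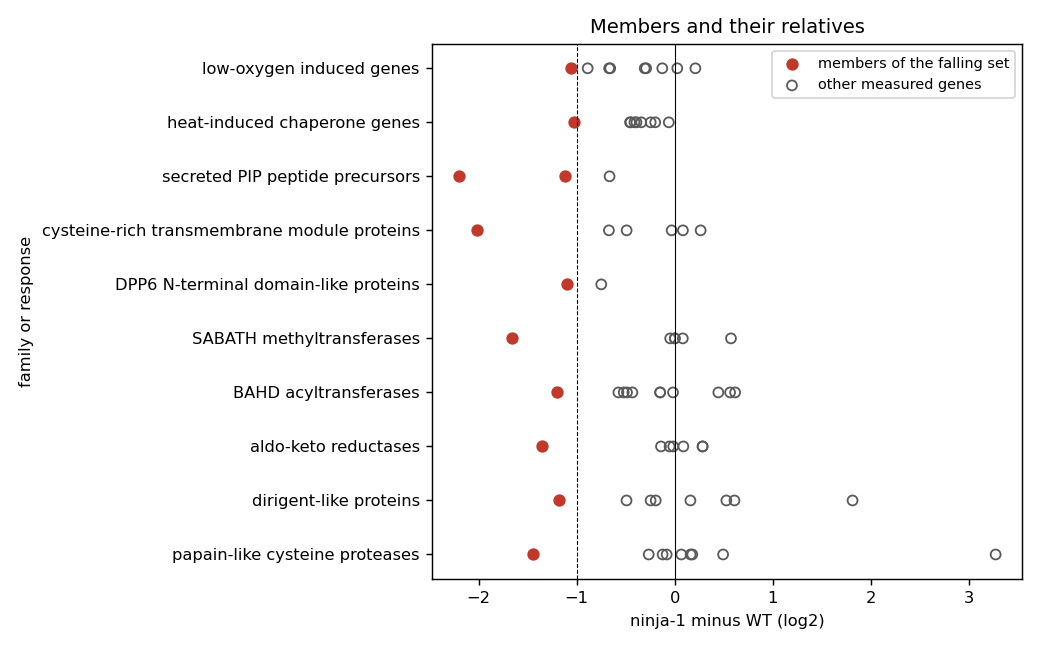
Difference *ninja-1* minus WT (log2, horizontal) for members (filled red) and for other measured genes of the same family or stress response (open grey), 1 row for each. Genes that were set aside, such as *AT4G11310*, are not drawn. The heat row has all 8 relatives below 0 and none beyond −0.46, while the dirigent and papain-like rows spread to 1.81 and 3.27.

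The unnamed members included several with large changes or high levels. 267461_at measured 6.18, 5.92 and 7.71 in *ninja-1* and 8.28, 8.44 and 9.43 in WT, and in both genotypes replicate 3 was the highest array. Its fall of 2.11 had the largest SE of the set, 0.63. 246821_at, among the dimmest members, measured 3.39, 3.54 and 3.54 in *ninja-1* and 4.56, 5.03 and 5.95 in WT.

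The next unnamed members by size of fall had smaller spreads, except for 266965_at. 249494_at measured 3.86, 3.74 and 4.41 in *ninja-1* and 5.35, 5.92 and 5.75 in WT. 255129_at measured 6.00, 5.77 and 6.82 in *ninja-1* and 7.42, 7.75 and 8.04 in WT. 254926_at measured 6.29, 6.50 and 6.93 in *ninja-1* and 8.50, 7.87 and 7.87 in WT. These 3 kept the genotypes at least 0.60 apart. 266965_at measured 6.51, 6.51 and 4.87 in *ninja-1* and 7.84, 7.43 and 7.08 in WT, and its fall rests on *ninja-1* replicate 3, since the other arrays of *ninja-1* were less than 1 log2 unit below the WT mean. 247949_at measured 6.78, 6.99 and 7.41 in *ninja-1* and 8.59, 8.34 and 8.58 in WT, and 253851_at 5.04, 5.06 and 5.93 in *ninja-1* and 6.75, 7.03 and 6.47 in WT.

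The 3 most abundant members had no gene name. 262119_s_at measured 9.83, 9.65 and 10.19 in *ninja-1* and 11.13, 10.84 and 11.02 in WT. 248790_at measured 8.88, 8.90 and 9.46 in *ninja-1* and 10.26, 10.13 and 10.13 in WT, and 258133_at 9.12, 8.73 and 9.25 in *ninja-1* and 10.24, 9.97 and 10.08 in WT. Their differences of −1.11, −1.09 and −1.06 were among the mildest of the set. The other unnamed members differed by −1.39 to −1.002.

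Features that were not conditions of the rule were described with no test. Spread and array order come from the same array values that chose the members, so they are not independent of that choice. Spread within a genotype was larger than in the typical expressed probe set, with a median SD of 0.30 in *ninja-1* and 0.28 in WT for members, against 0.11 in *ninja-1* and 0.09 in WT for all 13039 probe sets with a WT mean of 5 or more. The 114 probe sets of the rule turned upwards had 0.14 in *ninja-1* and 0.15 in WT. Replicate 3 was the highest *ninja-1* array in 33 of the 49 members (67.3%), against 31.3% of all 13039 probe sets, and its deviation from the *ninja-1* mean had a median of 0.25, against −0.10 for replicate 1 and −0.21 for replicate 2. Among the upward 114, replicate 3 was the highest *ninja-1* array in 29.8%. In WT the deviations had medians of −0.03, −0.07 and 0.03.

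**Figure D4:**
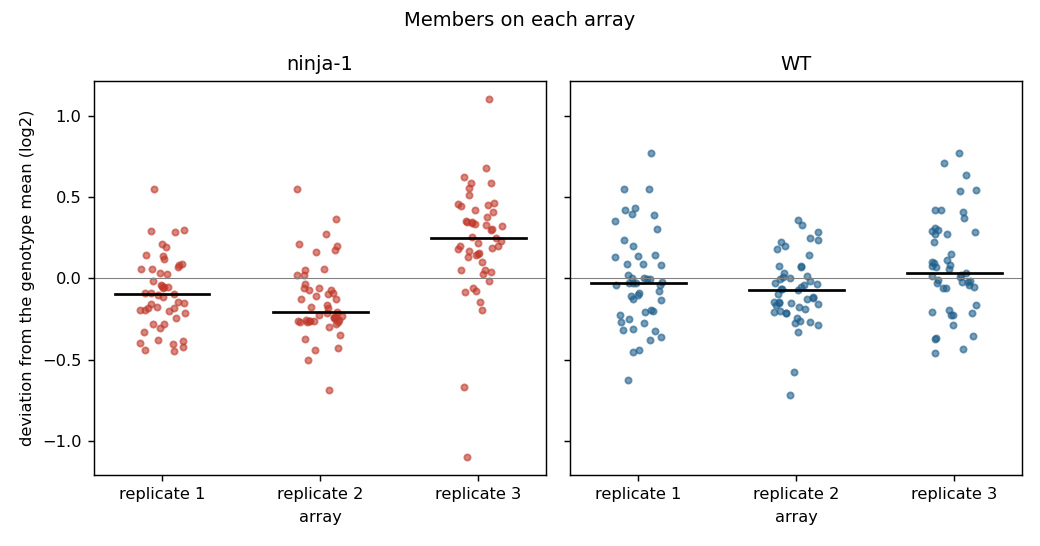
Deviation of each of the 49 members from the mean of its genotype (log2, vertical) on the 3 *ninja-1* arrays (left) and the 3 WT arrays (right), with black bars at the medians. *ninja-1* replicate 3 has a median of 0.25, above those of replicates 1 and 2, while the WT medians stay between −0.07 and 0.03.

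Replicate 3 was the highest *ninja-1* array in 20 of the 25 members with no gene name, in 5 of 8 enzymes, 4 of 8 peptide precursors and surface proteins and 2 of 3 regulators, but in just 1 of the 4 members of protein turnover, folding and stress. It was also the highest in *AT4G04990*. Without *ninja-1* replicate 3, 62 probe sets met the rule, 46 of them members, and the median difference of the 62 was −1.26.

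With each array left out in turn, 27 of the 49 members met the rule every time and 22 missed it at least once. The named genes among the 22 were *AT4G04990*, *AT3G56080*, *AT1G12010*, *AT1G68360*, *AT2G23270*, *AT1G10340*, *AT1G21670*, *AT3G10020* and *ROF2*, with differences between −1.25 and −1.03. *AT2G23270*, the PIP peptide precursor, missed it without *ninja-1* replicate 1, WT replicate 1 or WT replicate 3. The largest fall among the 22 was that of 246821_at, at −1.69, which missed the rule without WT replicate 3.

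By locus, 13 of the 26 genes behind the named members lay on chromosome 1 (50.0%), where 25.9% of the named genes with a WT mean of 5 or more lay. The 2 shares were counted differently. Both members shared by a pair of genes lay on chromosome 1 and counted as 2 genes each, whereas the 25.9% covers only probe sets with a single gene. Chromosomes 2, 3, 4 and 5 held 4, 3, 3 and 3. Within 4 genes on either side of the named members, 41 genes with a WT mean of 5 or more were measured, with a median difference of 0.03, and *AT1G21680* was the only one at −0.5 or lower. No member's gene had a second named probe set.

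The genes of pathways and families were taken from 34 lists chosen by name or family, with members left out. In 27 of the lists at least 1 gene had a named probe set, and 253 genes were measured outside the set. Genes whose probe set was named only by matching are not among the 253. In the limma fit over all probe sets 9 were higher and 2 lower at an adjusted p under 0.05, beside 0.805% and 0.374% of all 22746 probe sets. The 147 with a WT mean of 5 or more had a median difference of −0.0023. The lower genes were *scpl48*, a serine carboxypeptidase-like protein (9.78 in *ninja-1*, 10.19 in WT, adjusted p = 0.0285), and *LEA4-5*, one of the genes set aside. With any single array left out, 0 to 5 genes of the lists were higher and 1 to 3 lower.

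Lists that hold members are given beside them. Among the UDP-glycosyltransferases, 50 genes were measured outside the set, 1 was higher (*UGT76B1*, which glucosylates salicylic acid and isoleucic acid, 10.72 in *ninja-1* and 10.24 in WT, adjusted p = 0.0281) and none lower, and 16 had an unadjusted p under 0.05, as did 13.0% of all 22746 probe sets. The next smallest p was that of *UGT71C4*, at 8.34 in *ninja-1* and 8.63 in WT (adjusted p = 0.0904). Among 33 proteases outside the set, *scpl29* was higher (10.31 in *ninja-1*, 9.63 in WT, adjusted p = 0.0181) and *scpl48* lower. The calls of *UGT76B1* (adjusted p between 0.0681 and 0.125) and *scpl48* (between 0.0731 and 0.13) were lost without any 1 of the 6 arrays, and that of *scpl29* (between 0.0444 and 0.0985) without any but *ninja-1* replicate 3. None of the 10 pattern-triggered immunity genes and none of the 7 WRKY factors with an annotated probe set passed the adjusted p in limma. Of these, 4 and 2 were at an unadjusted p under 0.05, beside the same 13.0%. The 4 went both ways, with *AT5G39580* and *BIK1* higher and *WRKY22* and *AT5G64120* lower. *WRKY22*, counted in both lists, was one of the genes set aside that met the rule. It averaged 4.70 in *ninja-1* and 5.77 in WT (adjusted p = 0.141 in limma). The 10 did not include *AT2G35980* and *AT1G14540*, immunity genes that were set aside and named only by matching. In the same limma fit both were lower, with differences of −2.90 (adjusted p = 0.0274) and −2.03 (adjusted p = 0.00835). Of the 49 genes of the jasmonate list just 9 were measured, and the rest had no annotated probe set of their own. Of the 9, 1 passed the adjusted p, *AT5G05600*, which hydroxylates jasmonic acid and was higher. An unadjusted p under 0.05 in limma was reached by 4 of the 9, beside 13.0% of all probe sets. Among the 4 with a WT mean of 5 or more, 0 were below 0 and the median difference was 0.59.

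At the limits of level and difference, members and the probe sets just outside had nearly the same values, whereas at the limit of separation they were further apart. In WT level the lowest members were 255812_at at 5.01, 246821_at at 5.18 and *AT1G10340* at 5.25, and 255127_at at 4.96, *AT2G18050* at 4.93 and 253046_at at 4.86 met the other conditions but not this one. In difference, 257479_at at −1.002, 266269_at at −1.01 and 250165_at at −1.02 were the mildest members, and 252374_at at −0.999, *AT2G24400* at −0.998 and *AT1G64590* at −0.995 fell just outside. In separation, *AT2G23270*, 254215_at and 251824_at had gaps of 0.33, 0.39 and 0.45 between the genotypes, and just 2 probe sets at −1 or lower overlapped: *AT2G35300*, with a gap of −0.20, and 254098_at, with a gap of −1.46.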

How the data were processed

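RNA of 6 root samples, 3 *ninja-1* and 3 WT, was hybridised to 1-colour ATH1 arrays. The deposited log2 values were made by the authors with GCRMA (version not given in the sources used here), which corrects background by probe sequence, normalizes between arrays and leaves dim probe sets at a common floor, so that spread near the floor is understated. No further normalization was applied. Of 22810 probe sets, 64 controls were left out.

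Genotypes were compared with limma 3.58.1 in R 4.3.3 (lmFit and eBayes on genotype alone) over 22746 probe sets with Benjamini-Hochberg adjustment and a threshold of 0.05. The number of arrays limits the precision, and the script was tested on simulated data. The members and lists were chosen with earlier results of these data known.

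The platform annotation, updated through RefSeq, named 1 gene for 13436 probe sets. For genes without a named probe set in the study's list of changed genes, a probe set was taken where it alone came within 0.0006 of the listed adjusted p and within 0.06 plus 0.5% of the listed change. Among genes already annotated that the matching pointed to 1 probe set, it picked the right one for 48 of 48. Annotated genes with no match or with several were not counted. Only names were taken from that list. Families and stress responses beside the members, and the groups of functions, were drawn up from general knowledge of the loci after the values were seen.

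All named members except *AT4G04990* were placed in a functional group. Values on every array were given for the 16 largest falls, the 2 largest of each group and the 6 members with the highest WT mean. In each list with members, the 2 other genes with the smallest p were named, and up to 4 list genes past the adjusted p. The alternatives were other level and fold limits, centring, quantile normalization, filters on dim probe sets, other variance settings, a replicate block and leaving out each array.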

Additional observations from a re-analysis of the deposited data

How the results depend on the processing

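The number of probe sets that met the rule stayed between 42 and 60 with the level limit at 6 or 4, with median centring, quantile normalization or linear means, with 1 probe set per gene and with shared probe sets left out, and their median difference between −1.25 and −1.22. A fall of at least 1.5 left 12 with a median of −1.68. With single arrays left out, 44 to 62 met the rule, and 27 of the 49 members were kept each time. No member's difference changed sign under centring, quantile normalization, linear means or any left-out array. The separation that the rule requires fixes this in advance for linear means and left-out arrays, so nothing is read from it.

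Counts of calls depended on the fit. The limma fit called 11 probe sets at least 2-fold lower and 112 higher, and 2 list genes lower and 9 higher. With dim probe sets left out it called 58 lower and 170 higher (list genes 11 and 17), and with trend and robust settings added, an alternative chosen after seeing the data, 63 lower and 175 higher (list genes 16 and 19). With only probe sets of WT mean 5 or more it called 56 lower and 113 higher (list genes 14 and 17). Median centring gave 40 lower and 170 higher (list genes 5 and 18), and no moderation 5 lower and 82 higher (list genes 1 and 4). Without single arrays the fit called 3 to 12 lower and 33 to 83 higher, and 1 to 3 list genes lower and 0 to 5 higher. The filters fit fewer probe sets, and the cause of these changes was not tested. With the replicate block the calls were 0 lower and 0 higher, and 0 list genes either way. Same-numbered samples had deviations that correlated by 0.10, 0.05 and 0.18, and differently numbered samples by between −0.25 and 0.19. So few values cannot show whether replicates were paired. No pairing of replicate numbers is described, so the block was kept as an alternative. The comparisons of promoter motifs and of protein length were not run.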

Other observations

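The member *AT3G10020* belongs to a set of transcripts induced by low oxygen, and other genes of that response were looked up after the values had been seen. *AT4G27450* averaged 6.76 ± 0.19 in *ninja-1* and 7.65 ± 0.24 in WT (SD, n = 3 each), with every *ninja-1* array below every WT array. *AT4G10270* averaged 4.80 ± 0.53 in *ninja-1* and 5.46 ± 0.39 in WT and its arrays overlapped. Of 8 such genes 6 were below 0 and 1 separated the genotypes, with differences between −0.89 and 0.21. The separated gene was 1 of the 5 with a WT mean of 5 or more, where 15.6% of all probe sets were separated in that direction. *PDC2*, a pyruvate decarboxylase of fermentation, averaged 7.69 ± 0.18 in *ninja-1* and 7.51 ± 0.17 in WT.

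The member *ROF2* is induced by heat. All 8 heat-induced chaperone genes looked up beside it were below 0, by between −0.46 and −0.06, and 6 had every *ninja-1* array below every WT array. The 6 include *AT1G52560* (2.11 in *ninja-1*, 2.35 in WT) and *AT5G37670* (2.77 in *ninja-1*, 2.97 in WT), which lie at or near the floor. Of the 5 with a WT mean of 5 or more this held for 4, against 15.6% of all probe sets at that level. *Hop3*, a co-chaperone, averaged 7.997 ± 0.20 in *ninja-1* and 8.45 ± 0.14 in WT, and the small heat shock protein gene *AT2G29500* 7.36 ± 0.19 in *ninja-1* and 7.77 ± 0.07 in WT. These genes were chosen after the values were seen and were not tested.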
